A study of Mus musculus with 15 samples.

Results

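Exc_11 is 1 of 26 clusters of excitatory neurons in the deposited table of cells from the mouse prefrontal cortex (PFC), the frontal cortical area that covers the anterior cingulate, prelimbic and infralimbic fields. Its members are all cells that carry this cluster name in that table, at both ages. They numbered 444 of 35360 retained cells and of 20377 cells in the excitatory clusters, with 399 from the adult (P60) libraries and 45 from the P21 libraries. By its number of P60 cells Exc_11 ranked 21 of 26. The cluster names are those of the cell table, whose 26 clusters are the finer of the divisions of excitatory neurons made in the study.

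Expression was measured in single cells captured in droplets, and a gene's level was counted in unique molecular identifiers (UMIs), tags that let every captured messenger RNA molecule be counted once. All mice were male C57BL/6N, and tissue of 2 animals was pooled for a library. The 12 P60 libraries (8 to 10 weeks of age) formed 6 groups of 2, namely saline or cocaine by intravenous self-administration at the end of the maintenance phase, after 48 h of withdrawal or after 15 days of withdrawal. The 3 P21 libraries (3 weeks of age) came from 4 mice with no such procedure, whose division over the libraries is not known. With 2 mice a library they cannot all be independent, so that p-values that count them as separate samples may be too small. Libraries are named here by the number in their title. Libraries 1 and 4 were cocaine and 2 and 3 saline at maintenance, 6 and 8 cocaine and 5 and 7 saline at 48 h, and 9 and 10 cocaine and 11 and 12 saline at 15 days. The tissue field of the labels names the nucleus accumbens, whereas the titles, the source field and the study name the PFC. Samples are libraries of pooled mice, so every p-value measures the spread between libraries.

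Excitatory neurons of the cortex release glutamate, which they load into synaptic vesicles with transporters of the VGLUT family. They are grouped by layer and by the target of their axons. Intratelencephalic (IT) neurons connect cortical areas, pyramidal tract (PT) neurons of layer 5 reach the brainstem and spinal cord, near-projecting (NP) neurons keep to local targets, and corticothalamic (CT) neurons of layer 6 reach the thalamus. The transcription factor RORB is best known from layer 4 of sensory cortex and from the layers around it, and the medial PFC of mice lacks a clear granular layer 4.

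Exc_11 cells at P60 had a median of 11558 UMIs (from 3534 to 50385) and 3648 genes, against 13714.5 UMIs and 3991 genes in the other excitatory clusters. At P21 the medians were 7470 UMIs and 2771 genes, against 9248 UMIs and 3273 genes in the others, and 3 of the 45 cells had fewer than 1500 genes. Levels are given as CPM, the UMIs of a gene summed over the Exc_11 cells of a library per 1e6 UMIs of these cells, with mitochondrial and ribosomal protein genes left out of both. A library entered with at least 10 Exc_11 cells, which left out P60 library 6 (6 cells) and P21 library 2 (9 cells). Retained barcodes shared by a pair of libraries numbered at most 27, and no Exc_11 barcode was shared. No doublet caller was run here, and the authors had removed cells with unusually many genes.

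The members carried the genes of their class. Summed over 8 excitatory markers, the 11 P60 libraries lay between 8418 and 10307 CPM, above the 6329 to 7490 CPM of the other excitatory neurons. Most of this sum came from Snap25, which neurons of both classes carry, and from Nrgn. The vesicular transporter gene Slc17a7 was lower than in the other excitatory neurons (below). Gad1 and Gad2, which make GABA, were each at 1.1 CPM, and Dlx1 and Dlx2 were at 0. The 8 inhibitory markers together reached 0 to 20.4 CPM, against 1.96 to 22.6 CPM in the other excitatory neurons. Pdgfra of oligodendrocyte precursors and Csf1r of microglia were at 0. The 6 astrocyte markers summed to 447 to 669 CPM, against 335 to 556 CPM in the others, almost all of it from Slc1a2 and Aldoc, while Gja1 was at 0.069 CPM and Aqp4 at 0.49 CPM. Oligodendrocyte markers summed to 60.1 to 196 CPM, against 57.3 to 172 CPM in the others.

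Another class name was given in the cell table to 2 of the 45 P21 members. The one named an oligodendrocyte precursor (2942 UMIs) had 17 UMIs of excitatory and 0 of precursor markers. The one named microglia (7659 UMIs) had 37 UMIs of excitatory and 35 of microglia markers. P21 cells had been given their names by the authors from their correlation with the P60 clusters, so their membership rests on a transfer rather than on the clustering itself.

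Libraries of 1 group differed in a set of genes that has to be kept in view below. In the other excitatory neurons, 38 of 6065 genes at 20 CPM or more were over 2-fold higher in saline 15-day library 12 than in saline 15-day library 11, and 0 were over 2-fold lower. Summed over these 38 genes, Exc_11 lay between 2360 and 5038 CPM in P60 libraries 1 to 8 and 11, at 7111 CPM in library 12, at 11308 CPM in library 10, at 12371 CPM in library 9, and at 7773 to 15381 CPM in the 3 P21 libraries. Both cocaine libraries at 15 days and all P21 libraries therefore sat on the high side. Batches are not given in the labels, and each library is of a single age, so that batch and age cannot be told apart.

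**Figure D1:**
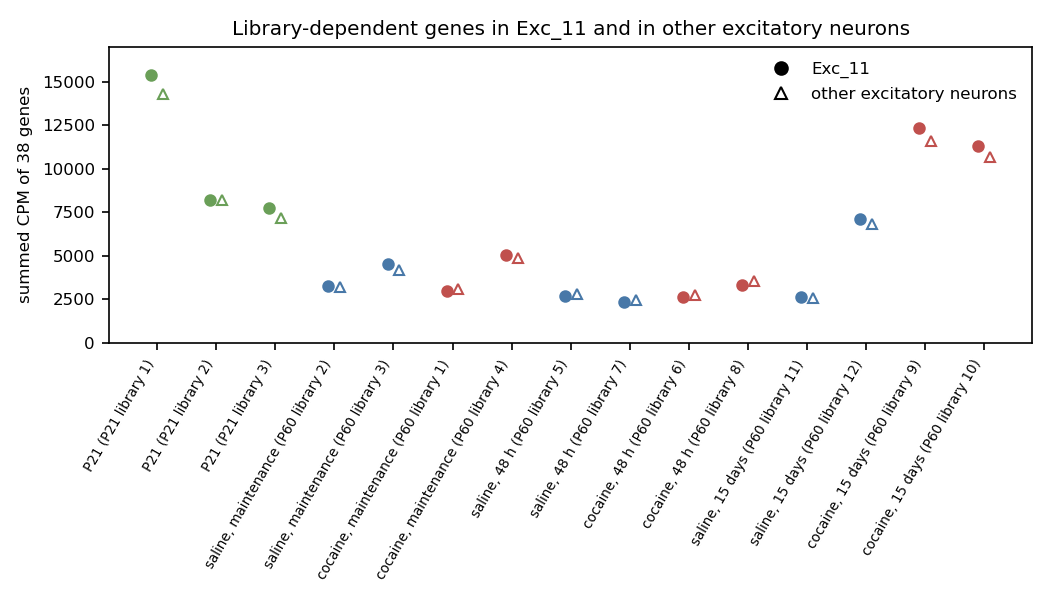
Summed CPM (vertical axis) of the 38 genes that separate the 2 saline 15-day libraries, in each of the 15 libraries (horizontal axis), with filled circles for Exc_11 and open triangles for all other excitatory neurons. Green marks P21, blue saline P60 and red cocaine P60. In Exc_11 the P21 libraries and P60 libraries 9, 10 and 12 lie at 7111 CPM or more, and all other libraries at or below 5038 CPM.

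The share of Exc_11 among excitatory neurons had a lower mean at P21 than in saline P60, a difference that did not pass the test. At P21 it was 0.564%, 0.581% and 1.16% in libraries 1, 2 and 3, a mean of 0.767% ± 0.337 (SD, n = 3). In the 6 saline P60 libraries it was 4.98%, 1.89%, 2.04%, 3.65%, 2.04% and 1.79% (libraries 2, 3, 5, 7, 11 and 12), a mean of 2.73% ± 1.3 (SD, n = 6). The highest P21 library lay below the lowest saline library, and library 2 was the highest of all with only 16 cells (95% exact binomial interval 2.88% to 7.97%). The difference in means was -1.97 percentage points, with p = 0.0595 in a two-sided exact permutation test over 84 splits (0.0794 adjusted over 4 tests), and p = 0.0179 without saline library 2 or 0.0357 without saline library 7. As a share of all retained cells the difference was -0.904 percentage points with an exact permutation p of 0.0238. With P21 libraries 2 and 3 summed as 1 sample the difference in the share of excitatory neurons was -2.004 percentage points (exact permutation p = 0.0714). P21 cells also had fewer UMIs, and their part in the share was not tested.

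Cocaine and saline libraries overlapped in the share. The 6 cocaine libraries held 1.93%, 2.16%, 0.776%, 2.63%, 4.62% and 2.86% (libraries 1, 4, 6, 8, 9 and 10), a mean of 2.50% ± 1.27 (SD, n = 6). The mean difference within time points was -0.239 percentage points (cocaine minus saline), with an exact permutation p of 0.796 over 216 regroupings. At 15 days both cocaine libraries (4.62% and 2.86%) lay above both saline libraries (2.04% and 1.79%), and at maintenance and 48 h the groups overlapped. With 2 libraries in each group, no test was made within a time point.

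**Figure D2:**
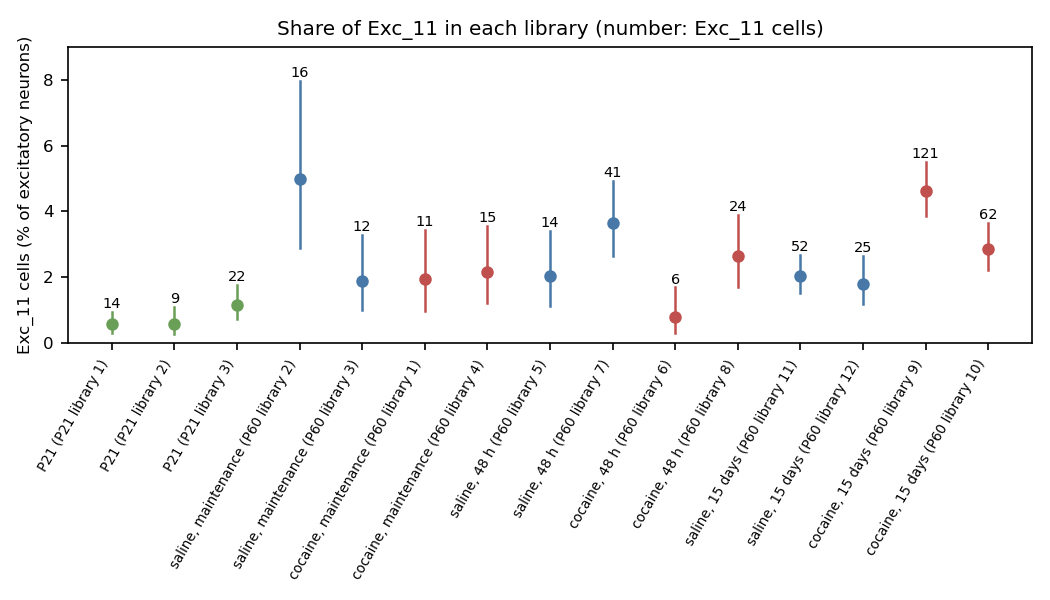
Share of Exc_11 cells among all excitatory neurons (vertical axis, percent) in each of the 15 libraries (horizontal axis), with green for P21, blue for saline and red for cocaine. Points are the shares, bars their 95% exact binomial intervals, which cover counting error only, and the numbers above them the Exc_11 cells. The P21 libraries lie between 0.564% and 1.16%, and the P60 libraries between 0.776% and 4.98%.

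The authors removed mitochondrial genes and genes of ribosomal proteins before they clustered the cells, so that the clustering did not use these genes directly. Their shares can still vary with depth and with genes that the clustering used. Cells had also been removed by their mitochondrial fraction. Mitochondrial transcripts made up 2.21% of the UMIs in Exc_11 and 2.76% in the other excitatory neurons of the same libraries. The difference was -0.543 percentage points with an SD of 0.304, lower in 13 of 13 libraries, with p = 0.000244 in an exact sign-flip permutation test, the smallest it can give (0.000977 adjusted over 4 tests). Exc_11 ranked 25 of 26 clusters in this share at P60, with 2.01%, close to the 2.099% of Exc_8 (rank 24) and the 1.90% of Exc_21 (rank 26). Ribosomal protein genes made up 5.52% of the UMIs in Exc_11 and 5.86% in the others, lower in 12 of 13 libraries, a difference of -0.335 percentage points with an exact permutation p of 0.000488 (0.000977 adjusted). Against the nearest cluster alone the mitochondrial difference was -0.511 percentage points (exact permutation p = 0.00171), whereas the ribosomal one turned to 0.121 percentage points (exact permutation p = 0.188). Exc_11 cells held fewer UMIs than the others, and the part of depth was not tested.

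Exc_11 was marked by a set of genes that it shared in graded amounts with a few other clusters. These genes describe the cluster, since the clustering used them, and no test was made. The 15 genes with the largest ratio of Exc_11 to the mean of the other 25 clusters were Cldn22, Rspo1, Ctxn3, Adam33, Cbln4, Tnnt2, Fam5c, Zfhx4, Hspb3, Ddit4l, Tcap, Gm13629, S100a1, Incenp and Rorb. Of these, 9 were highest in Exc_11 and 6 were second to another cluster. The cluster next to or above it was Exc_10 for 12 of them and Exc_1 for the other 3. All 15 were above the other excitatory neurons in all 11 P60 libraries, as the rule for choosing them required, and in the mean of the P21 libraries too.

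Tnnt2 encodes cardiac troponin T, a part of the thin filament of heart muscle (chromosome 1, 137737452 to 137748837, plus strand, NCBIM37). Its level in Exc_11 was 198 CPM in the lowest, 463 in the median and 685 in the highest of the 11 P60 libraries, with a mean of 448 ± 133 (SD). The mean of the other 25 clusters was 60.9 CPM, and Exc_10 came next with 187 CPM. Tnnt2 and Cldn22 were the only genes at 20 CPM or more that were highest in Exc_11 and over 2-fold above the next cluster in mean CPM, with no offset, out of 5826 genes at that level. Tcap, which encodes the titin cap protein of striated muscle, was at 158 CPM, almost level with Exc_10 (159 CPM) and far from the mean of the other clusters (37.7 CPM).

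Cldn22 encodes a claudin, a protein of tight junctions (chromosome 8, 48909836 to 48910829, plus strand). It was low in absolute terms, at 17.1 CPM in the lowest, 31.4 in the median and 58.5 in the highest library, yet stood 9.74-fold above the mean of the other clusters on the CPM + 1 scale. Adam33 encodes a membrane-bound metalloprotease (chromosome 2, 130876327 to 130889550, minus strand). It ran from 74.5 through a median of 141 to 194 CPM, against 97.4 CPM in Exc_1 and 61.2 CPM in Exc_10. Ctxn3, a small cortexin membrane protein, was at 40.8, 51.6 and 107 CPM in the lowest, median and highest library. For Ctxn3 the next cluster was Exc_1 with 37.0 CPM, and Exc_10 had only 8.0 CPM.

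Incenp encodes a scaffold of the chromosomal passenger complex, which works in cell division, and it stood out in neurons that no longer divide (chromosome 19, 9946787 to 9974023, minus strand). In Exc_11 it was at 103, 139 and 159 CPM in the lowest, median and highest library, below the 168 CPM of Exc_1 and above the 33.5 CPM mean of the other clusters. Rorb was at 103, 215 and 401 CPM, second to Exc_10 with 291 CPM. Rspo1 encodes R-spondin 1, a secreted enhancer of Wnt signalling, and it had its highest level in Exc_11 with 26.3 ± 13.4 CPM (SD, n = 11), against 15.0 CPM in Exc_10. Cbln4, a secreted synaptic organizer of the cerebellin family, was at 46.6 CPM in Exc_11 and 45.7 CPM in Exc_10, against 5.32 CPM in the mean of the other clusters. Fam5c, another leading gene, overlaps Gm15583 on the same strand, so that reads of this pair could be shared. Rspo1, Ctxn3, Zfhx4 and Gm13629 overlap other genes on the opposite strand only.

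**Figure D3:**
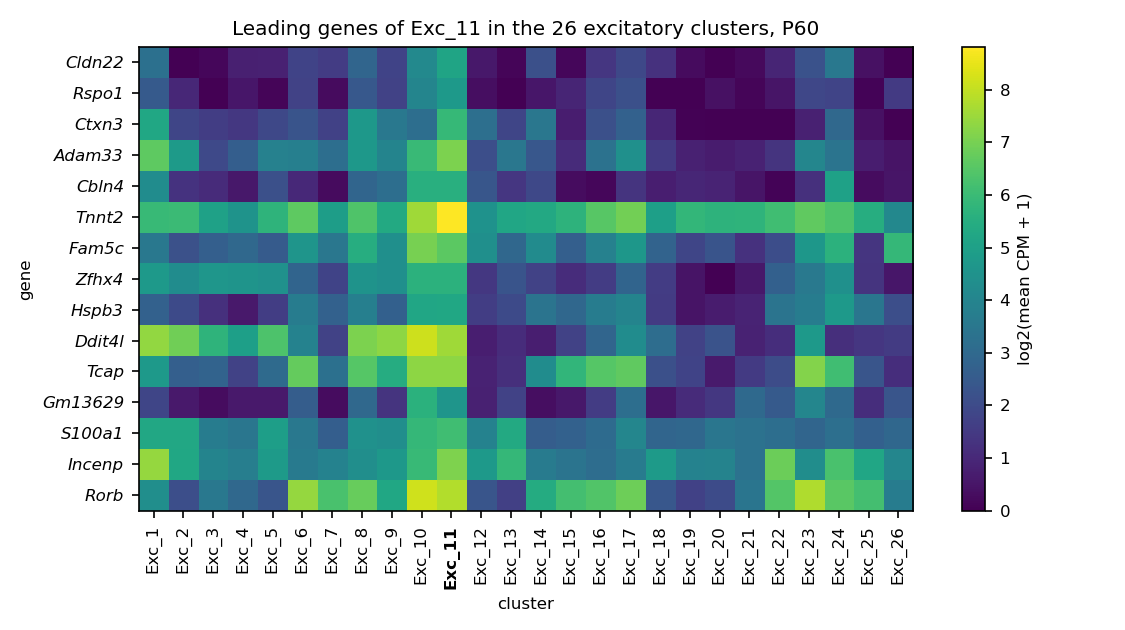
Levels of the 15 leading genes of Exc_11 (rows) in the 26 excitatory clusters (columns) at P60, as log2 of the mean CPM + 1 over libraries (colour scale). The Exc_10 and Exc_11 columns are bright in nearly all rows. Ctxn3 is bright in Exc_1 and Exc_11 but not in Exc_10.

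Other genes of excitatory neurons were near absent. The 10 genes with the lowest ratio were Ramp3, Nnat, Cdh13, Lypd1, Rab3b, Spon1, Efnb3, Bcl11b, Cxcl12 and Expi, each at or below 2.22 CPM in Exc_11. Ramp3, which modifies receptors of the calcitonin family, was at 1.12 CPM against 91.8 CPM in the mean of the other clusters and 351 CPM in Exc_19. Nnat, neuronatin, was at 1.84 CPM against 107 CPM, and the cadherin Cdh13 was at 2.22 CPM against 96.2 CPM. Bcl11b, the transcription factor CTIP2 of subcerebral projection neurons, was at 1.65 CPM against 43.3 CPM. Several of these were as low in the nearest cluster, where Bcl11b was at 2.16 CPM and Nnat at 2.88 CPM.

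The clusters most like Exc_11 over 9776 genes were Exc_10 (Pearson's r = 0.989 between log2 profiles), Exc_8 (0.987) and Exc_9 (0.979), with 1115, 772 and 933 cells. These profiles share libraries and most of their genes, and r is given as a description. Of 6245 genes at 20 CPM or more in either cluster, 17 were over 2-fold higher in Exc_11 than in Exc_10 and 35 over 2-fold lower. Of the 17, 16 were also higher in Exc_1 than in Exc_10, with Tnnt2 as the exception (59.9 CPM in Exc_1), and of the 35, 30 were also lower in Exc_1. These ratios are of CPM + 1, on which Cldn22 (34.3 CPM against 16.7 CPM) fell just short of 2-fold.

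Genes higher than in Exc_10 included S100a6, a calcium-binding protein, with 593 ± 139 CPM (SD, n = 11) against 280 CPM in Exc_10 and 1025 CPM in Exc_1. Igfbp6, which binds insulin-like growth factors, was at 409 CPM against 179 CPM, and Ccnd1, cyclin D1, at 74.2 CPM against 23.8 CPM. Rasl10a, a small GTPase, was at 61.0 CPM against 10.5 CPM. S100a6, Igfbp6, Ccnd1 and Rasl10a were each higher in Exc_11 than in Exc_10 in 11 of 11 libraries.

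Genes lower than in Exc_10 were led by Cartpt, which encodes the CART neuropeptide (chromosome 13, 100668439 to 100670638, minus strand). It was at 0 CPM in 7 of the 11 libraries of Exc_11 and at most 16.5 CPM, against a mean of 70.4 CPM in Exc_10. Thsd7a, a membrane protein with thrombospondin repeats, was at 10.1 CPM against 48.9 CPM. Inadl, a tight junction scaffold, was at 5.55 CPM against 30.0 CPM, and Pld5, of the phospholipase D family, at 18.3 CPM against 57.5 CPM. In none of the 11 libraries were Cartpt, Thsd7a, Inadl or Pld5 higher in Exc_11 than in Exc_10, with Thsd7a at 0 in both in library 5. The haemoglobin genes Hbb-b1 (61.2 CPM against 484 CPM) and Hba-a1 (15.4 CPM against 206 CPM) also had lower means, but Hbb-b1 was higher in Exc_11 in 5 of 11 libraries. The part of free RNA from blood in these levels was not tested.

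**Figure D4:**
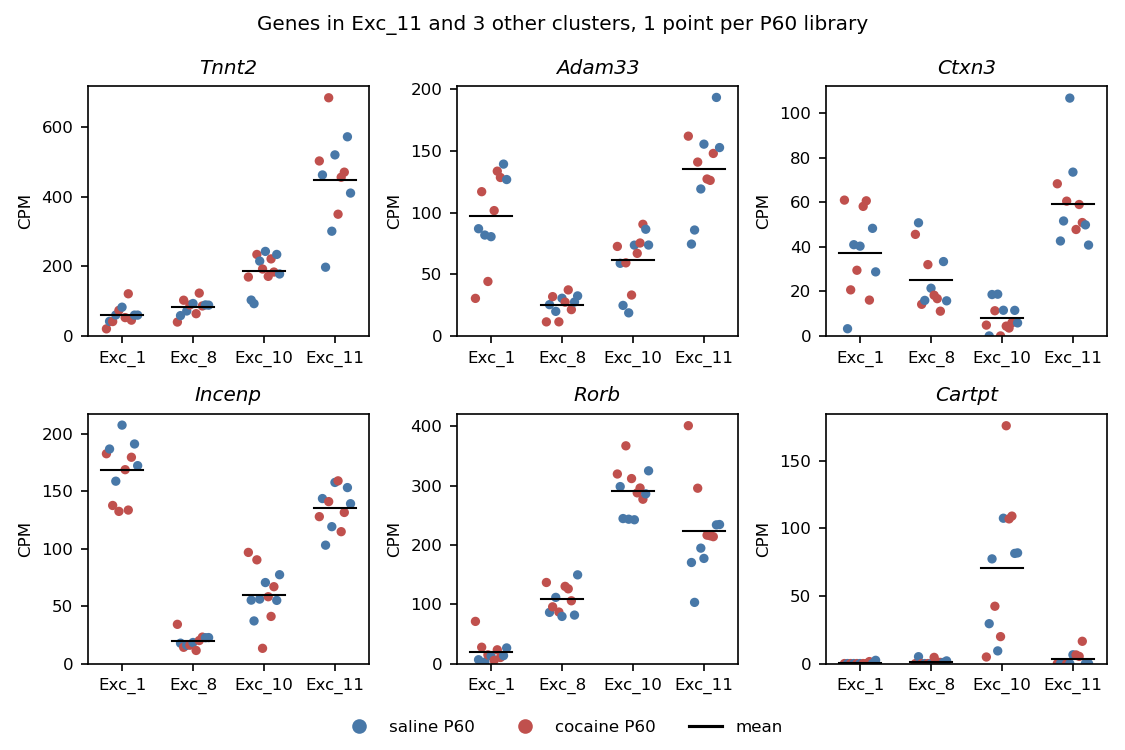
CPM of Tnnt2, Adam33, Ctxn3, Incenp, Rorb and Cartpt (vertical axes) in clusters Exc_1, Exc_8, Exc_10 and Exc_11, with 1 point for each P60 library, blue for saline and red for cocaine, and a bar at the mean. Tnnt2 has its highest mean in Exc_11 (448 CPM), Incenp is high in Exc_1 and Exc_11, and Cartpt is high in Exc_10 alone of these 4 clusters.

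In single cells, Tnnt2, Adam33 and Ctxn3 were also found in a larger share of Exc_11 than of Exc_10. A UMI of Tnnt2 was found in 85.7% of 399 Exc_11 cells at P60, 66.7% of Exc_10 cells, 42.4% of the other excitatory cells and 1.4% of endothelial cells, which should lack it (median UMIs 11558, 11802.5, 13714.5 and 4516). After each cell was thinned to 4000 UMIs, the shares were 67.8%, 42.4%, 19.1% and 0.9%, with 1 cell of Exc_11, 40 of Exc_10, 281 of the others and 1264 endothelial cells left out as too shallow. For Adam33 the thinned shares were 39.4% in Exc_11, 24.1% in Exc_10, 5.6% in the others and 0.8% in endothelial cells. For Ctxn3 they were 14.8%, 2.0%, 1.8% and 0.1%. Some other leading genes had a larger thinned share in Exc_10, among them Rorb (61.7% against 48.7% in Exc_11) and Ddit4l (55.5% against 41.2%). The other excitatory cells, here and below, include those of Exc_10. Exc_1, the next cluster for Adam33 and Ctxn3, was not counted apart. No leading gene was found in all members, which at this depth does not separate cells without the gene from cells where it was missed.

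Among the genes of cortical layers, Exc_11 carried a part of the layer 4 and upper layer 5 IT list and little of the deep layer lists. Of 8 genes in the former, 7 were at 5 CPM or more in Exc_11, and 4 of these were above the mean of the other clusters, with a median log2 ratio of 1.55 against -0.04 over all genes. The 4 were Rorb, Rspo1, Whrn (23.5 CPM, rank 3 of 26) and the potassium channel Kcnh5 (9.7 CPM, rank 2). Rorb and Rspo1 are leading genes, chosen for their high level in Exc_11. The summed level of this list, 180 to 631 CPM, overlapped the 202 to 362 CPM of the other excitatory neurons. In the same list Etv1, a mark of layer 5, was at 7.3 CPM against 97.2 CPM. The layer 2/3 IT list had 2 of 4 genes at 5 CPM or more above the mean of the other clusters (median log2 ratio 0.12). Cux1, an upper layer transcription factor, was at 34.7 CPM and ranked second, whereas its relative Cux2 was at 53.5 CPM and ranked 12.

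Of the layer 6 CT genes 0 of 2 at 5 CPM or more were above the mean of the other clusters (median log2 ratio -1.51), and no layer 6 IT gene reached 5 CPM. The layer 5 PT list had 1 of 3 above it (median -0.19), and its summed level of 247 to 448 CPM overlapped the 334 to 532 CPM of the other excitatory neurons. Within that list Fezf2, the factor that specifies subcerebral neurons, was at 5.9 CPM against 47.2 CPM. Foxp2 and Syt6 of corticothalamic neurons were at 2.0 CPM and 0.2 CPM, against 20.7 CPM and 11.6 CPM. Osr1 of layer 6 IT neurons was at 0, as were Slc17a8 and Trhr of NP neurons. The layer 5/6 NP list had 1 of 1 gene at 5 CPM or more above the mean of the other clusters (log2 ratio 0.07). Its summed level of 34.4 to 155 CPM overlapped the 56.3 to 129 CPM of the other excitatory neurons. Tshz2 was an exception by rank and by the share of cells, though not by its mean. After thinning, a UMI of Tshz2 was found in 31.4% of Exc_11, 20.4% of Exc_10 and 8.3% of the other excitatory cells. The share of endothelial cells was 64.7%. Exc_11 ranked second with 96.7 CPM, close to the mean of the other clusters (92.1 CPM), which Exc_21 with 2099 CPM raised.

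Vesicular glutamate transporter genes differed from the mean of the other clusters, and Exc_10 shared the pattern in part. Slc17a7 (VGLUT1) was at 268 ± 40.4 CPM (SD, n = 11) in Exc_11, rank 25 of 26, and below the other excitatory neurons in 11 of 11 libraries, with 354 CPM in Exc_10. Slc17a6 (VGLUT2) was at 27 ± 18.2 CPM against 9.2 CPM in the other clusters, rank 3 after Exc_21 (114 CPM) and Exc_10 (33.1 CPM). A UMI of Slc17a6 was found in 20.6% of Exc_11 and 30.3% of Exc_10 cells, or 8.8% and 14.3% after thinning, against 0.1% of endothelial cells. Nrgn, neurogranin, a calmodulin-binding protein of dendrites, was at 1856 CPM, the highest of the 26, though its libraries ran from 1171 to 3280 CPM with libraries 9 and 10 at the top.

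Of 17 genes of synaptic vesicles and release, all at 5 CPM or more, 7 were above the mean of the other clusters, with a median log2 ratio of -0.13. Stx1a, syntaxin 1A of the fusion machinery, was at 788 ± 72.5 CPM and ranked first. Snap25, its partner, was at 6097 CPM and ranked 3 of 26. Cplx2, complexin 2, was at 64.8 CPM against 284 CPM, and the vesicle protein gene Sv2b was at 170 CPM and ranked 25. These clusters differ in depth, and all values are shares of UMIs.

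Receptor genes were mixed. Of 14 glutamate receptor genes at 5 CPM or more, 5 were above the mean of the other clusters (median log2 ratio -0.22). Among the 5 were the metabotropic receptor genes Grm7 (81.6 CPM, rank 1), Grm2 (55.6 CPM, rank 2) and Grm3 (85.7 CPM, rank 2). The kainate receptor gene Grik3 was at 1.4 CPM against 25.4 CPM. Of 11 GABA-A receptor genes, 6 were above the mean (median log2 ratio 0.13), and Gabra3, at 46.7 CPM, had its lowest level of the 26 clusters in Exc_11.

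Of 27 potassium channel genes, 17 were above the mean of the other clusters (median log2 ratio 0.12). Kcnmb4, a subunit of BK channels, was at 47.7 CPM, the lowest of the 26 clusters and below the other excitatory neurons in 11 of 11 libraries. Kcnk2, the TREK-1 leak channel, was at 35.5 CPM against 14.1 CPM. Receptor genes for dopamine were not detected. Drd1a was at 0 in all 11 libraries, which allows a level of up to 0.695 CPM (3 counts over the group), against 6.8 CPM in the mean of the other clusters and 27.8 CPM in Exc_12, and Drd2, Drd4 and Drd5 were at 0 as well. The serotonin receptor gene Htr1a (16.6 CPM) and the corticotropin-releasing hormone receptor gene Crhr1 (33.5 CPM) each ranked second.

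The comparison of P60 with P21 asks how these neurons differ between the ages. It was made between the 6 saline P60 libraries and P21 libraries 1 and 3. The saline mice had also been through food training, catheter surgery and saline self-administration, and the P21 mice had not. Age and this procedure cannot be told apart, here or in the share above. Snap25, Tnnt2 and Cpne5 were called higher at P60, and 4 immediate early genes and 4 genes of the growing cytoskeleton lower. The calls of Tnnt2, Btg2, Nr4a1, Egr1, Crmp1 and Dbn1 were lost in fits that left out a library (below). Junb is one of the 38 library-separating genes. Of 3711 genes tested, 176 were called (4.74%), 60 higher (1.62%) and 116 lower (3.13%) at P60, by edgeR's quasi-likelihood test with Benjamini-Hochberg adjustment at 0.05 and a 1.5-fold change. The excess of lower calls depended on the libraries. There were 67 higher and 66 lower calls with libraries of at least 20 cells, 60 and 70 with all P60 libraries, and 52 and 59 without P21 library 1. DESeq2 called 138, of which 125 were among the 176. In the other excitatory neurons of the same libraries, 175 of the 176 had the same sign and 124 were called the same way. There 2330 of 13510 genes tested were called. Groups did not overlap for 23% of all genes tested. Among the 116 calls lower at P60, 43 were also called higher with cocaine at 15 days, where the same 2 saline 15-day libraries enter. Of the 116, 14 belonged to the 38 genes that separate these 2 saline libraries. With a score of those genes as a covariate, an alternative chosen after the data were seen, 1 call remained (335 genes at an unadjusted p under 0.05). The score was 2.17 and 1.37 in P21 libraries 1 and 3 and -0.0760 to 1.28 in the saline libraries. It thus separates the ages, and this fit cannot tell age from the library difference. Without P21 library 1 there were 111 calls in all and without P21 library 3 there were 256. These fits leave 1 P21 library, which is assumed to vary like the saline libraries.

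Snap25, the presynaptic fusion protein, was at 6089, 5929, 7003, 6448, 5755 and 5746 CPM in saline libraries 2, 3, 5, 7, 11 and 12, and at 3574 and 3179 CPM in P21 libraries 1 and 3. The groups stood well apart, and Snap25 rose by 0.86 ± 0.15 (SE) on the log2 scale (edgeR, adjusted p = 0.000735). In the other excitatory neurons of the same libraries it rose by 0.66 (edgeR, adjusted p = 0.00298). Tnnt2 was at 463, 198, 301, 521, 573 and 411 CPM in the saline libraries and at 107 and 151 CPM at P21. It rose by 1.70 ± 0.37 (SE) in Exc_11 (edgeR, adjusted p = 0.0121) and by 2.32 in the others (adjusted p = 7.94e-06). The call in Exc_11 was lost without P21 library 1 (adjusted p = 0.2, edgeR) and without P21 library 3 (adjusted p = 0.0657).

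Tnnt2 is a leading gene, and so are Adam33, with a change of 1.96 (edgeR, adjusted p = 0.0121), and Incenp, with 1.80 (adjusted p = 0.0041). The call of Adam33 was lost without either P21 library (edgeR adjusted p = 0.0879 and 0.0552), and that of Incenp without library 3 (0.0673). Leading genes were chosen by their P60 levels, so that a rise toward P60 is not independent of the choice. Incenp lay between 103 and 158 CPM in the saline libraries and at 48.4 and 34.3 CPM at P21. At P21 they were still above the other excitatory neurons, which had a mean of 12.7 CPM of Incenp and 5.53 CPM of Adam33 over the 3 libraries. Cpne5, copine 5, a calcium-dependent membrane protein, rose by 1.3 on the log2 scale (edgeR, adjusted p = 0.0019), from 145 and 130 CPM to 276 to 380 CPM.

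The 8 largest rises were Anxa11, Ctxn2, Rnh1, Wipf3, Myh14, Tmem141, Gstt1 and Ublcp1, with log2 changes between 1.98 and 2.49. Each of these calls was lost without at least 1 library, those of Ctxn2, Rnh1, Wipf3, Tmem141 and Gstt1 in 3 to 5 fits that left out a library. Anxa11 was not called without P21 library 3 (edgeR adjusted p = 0.136), nor Myh14 without P21 library 3 (0.286) or saline library 7 (0.0638), nor Ublcp1 without P21 library 1 (0.0722). Anxa11, annexin A11, was at 64.5 to 113 CPM in the saline libraries and at 29.1 and 6.87 CPM at P21. Ublcp1, a phosphatase of the proteasome, was at 81.6 to 105 CPM against 19.4 and 27.5 CPM. In P21 library 2, whose 9 cells were too few for the fit, Ublcp1 and Myh14 were each at 85.8 CPM and Anxa11 at 0. Myh14 encodes a nonmuscle myosin, and it rose by 2.09 in Exc_11 and by 2.60 in the others.

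Marcksl1, a regulator of actin in growing processes, had the largest fall. It was at 87.2 and 137 CPM in P21 libraries 1 and 3, and at 0 in 4 of the 6 saline libraries and at most 8.59 CPM. Over the groups this was 29 UMIs at P21 and 2 UMIs in saline P60, a ratio of 102 per UMI total (95% interval 25.7 to 878, counting error only). Its relative Marcks was at 300.3 and 295 CPM at P21 and at 98.5 to 144 CPM at P60, and fell by 1.3 on the log2 scale (edgeR, adjusted p = 0.000823). Calb1, the calcium buffer calbindin, was at 368 and 330 CPM at P21 and 69.2 to 146 CPM at P60. Calb1 fell by 1.86 (edgeR, adjusted p = 2.72e-05) in Exc_11, and in the others it changed by -0.95 (adjusted p = 0.0887). Calb1 was not among the genes called in the test of the difference between them (below).

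Spry2, an inhibitor of growth factor signalling, was at 136 and 179 CPM at P21 and 10.2 to 49.8 CPM at P60. Its fall of 2.46 (edgeR, adjusted p = 0.000554) was called without each of the 8 libraries, and it was the call that remained with the library score as covariate. Abhd2, a lipase, fell by 2.74 (edgeR, adjusted p = 0.00124) and was called without each library as well. Hbb-b1 fell by 5.67 (edgeR, adjusted p = 0.0405), but 645 of its 665 UMIs in P21 library 1 came from 1 of 14 cells (97.0%), and it was called in 1 of the 8 fits. Gm1673, Junb, Tmem93 and Pfn1, with falls of 2.47 to 3.40, were all among the 38 library-separating genes, and of these only Junb was called without P21 library 1.

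**Figure D5:**
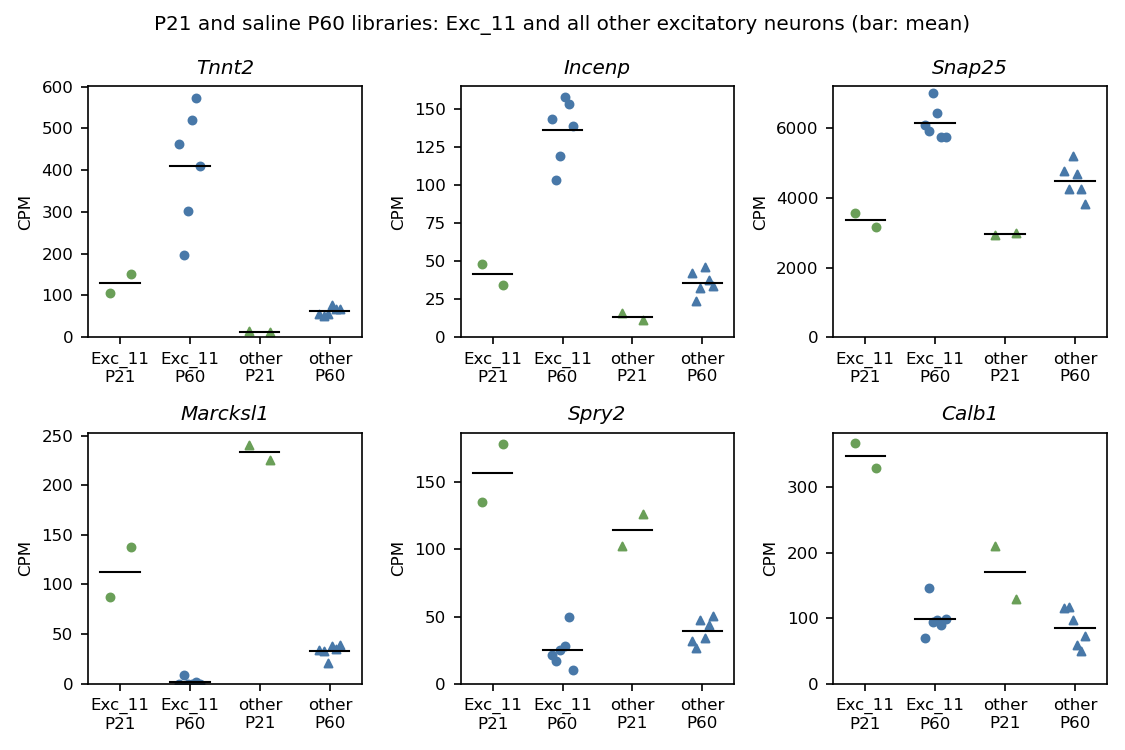
CPM (vertical axes) of 6 genes in P21 libraries 1 and 3 (green) and the 6 saline P60 libraries (blue), with circles for Exc_11, triangles for all other excitatory neurons and bars at the means. Tnnt2, Incenp and Snap25 are higher at P60, and Marcksl1, Spry2 and Calb1 are lower, in Exc_11. Marcksl1 at P60 is at most 8.59 CPM in Exc_11 and at most 39.2 CPM in the others.

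By gene group, 4 of 8 tested immediate early genes fell and 0 rose (median log2 change -1.05, against -0.001 over all genes tested, where 3.13% fell). They were Junb, Btg2 (-1.80), Nr4a1 (-1.54) and Egr1 (-0.92). Junb is one of the 38 library-separating genes and Btg2, Nr4a1 and Egr1 are not, but these were not called without P21 library 3 (edgeR adjusted p = 0.303, 0.465 and 0.192). The mitochondrial share of the UMIs in Exc_11 also differed with age, with 3.35% and 2.78% in P21 libraries 1 and 3 and 1.87% to 2.32% in the saline libraries, and its part in these changes was not tested. Of 14 tested genes of axon growth and the immature cytoskeleton, 4 fell and 0 rose (median -0.39), namely Marcksl1, Marcks, Crmp1 and Dbn1. Crmp1 and Dbn1, with changes of -0.96 and -0.91, were each lost in most fits that left out a library.

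Of 7 tested chromatin genes, a list that the study chose on these samples and that is no independent evidence, 3 fell, namely Yeats4, Dnmt3a and Ube2d3. Yeats4 was called without each library but not with all P60 libraries, Dnmt3a was not called without either P21 library (edgeR adjusted p = 0.182 and 0.063), and Ube2d3 not without P21 library 1 (0.165). Of 36 respiratory chain genes, 2 fell, Cyc1 and Uqcrfs1 (median -0.02). The call of Cyc1 was lost without P21 library 1 (edgeR adjusted p = 0.053), and that of Uqcrfs1 in 5 of 8 fits that left out a library, with 0.54 without P21 library 1. None of 10 glutamate receptor, 7 GABA-A receptor, 15 potassium channel, 7 mature axon and 10 heat shock genes passed the test. Among 15 vesicle genes Snap25 alone rose, and among 5 cholesterol synthesis genes Fdps alone (1.03). Slc1a2, a glutamate transporter gene of astrocytes that Exc_11 also held, fell by 0.96. Neither Fdps nor Slc1a2 was called without P21 library 1 (edgeR adjusted p = 0.23 and 0.182), nor Fdps without saline library 7 (0.0562).

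To ask which changes differ from those of the other excitatory neurons, the age change of Exc_11 was tested against that of the others in the same libraries. Of 11555 genes tested, 6 differed (0.0519%), 3 in each direction (0.026% each). The median over all genes was 0.11 on the log2 scale, and it was 0.02 with DESeq2 size factors, under which 11 genes were called, 3 with a higher and 8 with a lower change. P21 cells had been placed in the cluster by their expression, so that these differences also carry that placement.

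Cartpt was at 213 and 27.5 CPM in Exc_11 of P21 libraries 1 and 3, and in saline P60 it was at 0 in 5 libraries and 6.48 CPM in library 7. That is 26 UMIs against 3, a ratio of 60.7 (95% interval 18.6 to 313, counting error only). P21 library 1 held 22 of the 26 UMIs, and without it the ratio was 16 (95% interval 2.7 to 109). In the other excitatory neurons Cartpt was at 10.4 and 8.21 CPM at P21 and 0.377 to 10.3 CPM in saline P60. The change of Exc_11 was 5.20 lower on the log2 scale (edgeR, adjusted p = 2.8e-09), and 3.44 lower and not called without P21 library 1 (adjusted p = 0.656). Thsd7a had a difference of -2.88 (edgeR, adjusted p = 0.0103), but its 13.7 CPM in P21 library 3 lay within the saline range of 0 to 15.1 CPM, and only library 1 with 116 CPM stood above. Without library 1 its difference was -1.05 (adjusted p = 0.922). Both genes are among those that separate Exc_10 from Exc_11 at P60, and in P21 library 1 the Exc_10 cells held 259 CPM of Cartpt and 66.2 CPM of Thsd7a. Whether P21 members included cells of the Exc_10 kind was not tested.

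Marcksl1 was the remaining gene with a larger fall in Exc_11 (-3.79, edgeR adjusted p = 0.00108), and the other neurons held 33 CPM of it in saline library 3 and 39.2 CPM in library 12. Tmsb10, a thymosin that binds actin, went the other way with a difference of 0.93 (edgeR, adjusted p = 1.02e-09) from all other excitatory neurons together. In the other neurons it was at 3854 and 3222 CPM at P21 and 1903 to 2504 CPM in saline P60, whereas Exc_11 held 2082 and 1023 CPM and 1368 to 2028 CPM. Exc_10, the nearest cluster, did not stand higher at P21 in every library either, with 2228, 1028 and 1160 CPM of Tmsb10 at P21 and 1179 to 1550 CPM in saline P60, and against Exc_10 alone the difference was 0.38 and not called (edgeR adjusted p = 0.778). The calls of Marcksl1 and Tmsb10 were lost without P21 library 3 (edgeR adjusted p = 0.285 and 0.119). Nap1l5, a histone chaperone relative, differed by 0.68 (edgeR, adjusted p = 0.0114), and its difference was called in 2 of 8 fits that left out a library. Against Exc_10 alone, Marcksl1 (-1.33, edgeR adjusted p = 0.987) and Nap1l5 (0.13, adjusted p = 0.997) were not called either. There 3 genes were called, all with a lower change in Exc_11, Cartpt among them (-4.70, edgeR adjusted p = 6.75e-09).

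The comparison of cocaine with saline asks how these cells differed between mice that self-administered cocaine and mice that self-administered saline. Over the 11 P60 libraries and all time points, 4 of 6300 genes were called (0.0635%), 3 higher (0.0476%) and 1 lower (0.0159%), and DESeq2 called 0 (216 at an unadjusted p under 0.05, and 645 in edgeR). The 48 h groups entered with 1 cocaine library, whose spread was taken from the other groups. On data simulated for this comparison (6087 genes, 200 of them changed), the fit called 88% of 4-fold and 61% of 2-fold changes. Tmem66, a regulator of calcium entry, was at 188, 161, 143, 274 and 265 CPM in cocaine libraries 1, 4, 8, 9 and 10, and at 95.8, 94.5, 113, 84.3, 74.7 and 146 CPM in saline libraries 2, 3, 5, 7, 11 and 12. All cocaine libraries but library 8 lay above every saline library, and over all genes tested the groups did not overlap for 0.556%. The change was 0.94 on the log2 scale (edgeR, adjusted p = 0.000363), and it was called in 11 of 11 fits that left out a library. With the library score as covariate its change was 0.54 (adjusted p = 0.6), against 0.94. The other neurons of libraries 9 and 10 held 317 and 289 CPM of Tmem66, the highest of their P60 libraries too.

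Gabbr1, a subunit of the GABA-B receptor, changed by 0.62 (edgeR, adjusted p = 0.00209), with 322 to 571 CPM in cocaine and 163 to 397 CPM in saline libraries, which overlap. Atxn7l3b changed by 0.74 (edgeR, adjusted p = 0.0117). Ppap2a, a lipid phosphatase, changed by -1.35 (edgeR, adjusted p = 0.0063), and the other neurons by -0.16 (adjusted p = 0.66). Of 11 fits that left out a library, 2 lost the call of Ppap2a, those without saline library 3 (edgeR adjusted p = 0.0571) and saline library 7 (0.119), 3 that of Gabbr1 and 6 that of Atxn7l3b. Nrgn, at 0.55 with an adjusted p of 1.32e-05 in edgeR, stayed under the 1.5-fold limit. The count depended on single libraries. It was 47 without saline 15-day library 12, 18 without cocaine library 1, 8 without cocaine library 8 and 2 without saline library 3. With the library score as covariate it was 1 (452 at an unadjusted p under 0.05).

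At maintenance 3 of 6300 genes were called (0.0476%), 2 higher (0.0317%) and 1 lower (0.0159%). Dpysl2, a collapsin response mediator of axon growth, was at 742 and 410 CPM with cocaine and 208 and 215 CPM with saline, a change of 1.37 (edgeR, adjusted p = 5.58e-05), and DESeq2 called it as well (adjusted p = 0.0105). Rorb was at 401 and 296 CPM with cocaine and 170 and 103 CPM with saline, a change of 1.21 with an adjusted p of 0.0422 in edgeR and 0.547 in DESeq2. Ppap2a was at 8.53 and 13.4 CPM against 101 and 146 CPM (-3.41, edgeR adjusted p = 0.000817, DESeq2 0.547). Groups of 2 did not overlap for 37.3% of all genes tested. At 48 h the comparison needs library 6 with its 6 cells. With it, 0 of 4917 genes were called in edgeR (299 at an unadjusted p under 0.05) and 0 in DESeq2 (88).

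At 15 days 115 of 6300 genes were called (1.83%), 113 higher with cocaine (1.79%) and 2 lower (0.0317%). The higher ones were led by H2afj (2.57), Gm1673 (2.50), Lrrc14 (2.12), 2310036O22Rik (2.03) and Ring1 (2.02), a subunit of the Polycomb repressive complex. Igf2bp3 and Trappc9 were the 2 lower ones. All 115 had the same sign in the other excitatory neurons, and 30 were called the same way there, where 85 of 13815 genes tested were called. Nrgn was at 3280 and 3135 CPM with cocaine and 1171 and 1953 CPM with saline (1.06, edgeR adjusted p = 5.63e-10), and the other neurons changed by 0.97 (adjusted p = 0.0355). Calb1 was at 200 and 154 CPM against 90.05 and 98.5 CPM (0.96, edgeR adjusted p = 0.000688). Cyc1, of respiratory complex III, was at 259 to 314 CPM against 74.7 and 160 CPM (1.43, edgeR adjusted p = 8.82e-06), the second saline library being library 12.

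The number of calls varied with the libraries in the fit. Of the 115, 22 belonged to the 38 genes that separate the saline libraries 11 and 12, all 22 higher with cocaine. Those genes were chosen as low in library 11, a saline library of this comparison, so that the choice favoured this direction. The count was 5 without saline library 11, 39 without cocaine library 9, 59 without cocaine library 10 and 153 without saline library 12. DESeq2 called 11, and with the library score as covariate 0 were called (295 at an unadjusted p under 0.05). The score was 1.89 and 1.79 in cocaine libraries 9 and 10 and 0 and 1.28 in saline libraries 11 and 12. It thus separates the groups, and this fit cannot tell treatment from the library difference. Nrgn was called in all 4 fits that left out 1 of these libraries, whereas H2afj, Lrrc14 and Igf2bp3 were called in none of them. No more than 2 members of any gene list were called at 15 days, Cyc1 and Uqcrfs1 of the 36 respiratory chain genes being the only pair (median -0.05).

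The cocaine change of Exc_11 did not pass the test of a difference from that of the other excitatory neurons for any of 12737 genes (0 called, 607 at an unadjusted p under 0.05 in edgeR, and 0 with DESeq2 size factors, 640 at an unadjusted p under 0.05). Groups did not overlap for 0.463% of them. The lowest p-values belonged to Pcp4 and Osbp2 on the higher side and Pdrg1 and Ppap2a on the lower. Pcp4, a calmodulin regulator, differed by 0.35 (edgeR, adjusted p = 0.187), and Ppap2a by -1.21 (adjusted p = 0.187).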

How the data were processed

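Droplet single-cell RNA-seq (10x Genomics) had been run on PFC of P21 and P60 mice. The authors deposited raw UMI counts per gene and cell, made with Cell Ranger on the mm9 (NCBIM37) genome and Ensembl genes of that build, and a cell table with cluster names and the mitochondrial fraction of each cell. The authors removed cells by gene number and mitochondrial fraction, aligned and clustered P60 cells with Seurat, and named P21 cells by their correlation with P60 clusters. No column of per-sample values was left unmapped (0).

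Counts of Exc_11 cells were summed per library (50379 to 1429836 UMIs, from libraries of 8375172 to 42892922 UMIs in retained cells). Of 26145 genes, 149 symbols occurred more than once, and 25989 genes stayed after 13 mitochondrial and 143 ribosomal protein genes were set aside. Libraries entered with at least 10 cells. Age and cocaine were tested in edgeR 4.0.16 (quasi-likelihood, TMM, filterByExpr) in R 4.3.3, with Benjamini-Hochberg adjusted p under 0.05 and over 1.5-fold called, and DESeq2 1.42.0 as the alternative. Differences from the other excitatory neurons were interaction terms with the library as block. Shares were compared by exact permutation tests (scipy 1.17.1), and binomial intervals are at 95%. Intervals cover counting error only. The fits were tested on simulated data, where the age fit recovered 82% of 4-fold and 45% of 2-fold changes among 200 changed genes of 3688, and the 15-day fit 98% and 66% of 6208.

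Named genes were the 15 with the highest ratio of Exc_11 to the mean of the other clusters (on CPM + 1) at 20 CPM or more and above the other excitatory neurons in every P60 library, the 10 with the lowest, the 10 highest against the nearest cluster, the 8 largest rises and falls called in each comparison whose groups did not overlap, the 3 lowest p-values in each direction where none was called, and members of gene lists. Rasl10a, Ccnd1, Igfbp6, the haemoglobin genes and the genes lower than in Exc_10 were chosen after their values were seen, from all genes over 2-fold apart. Gene positions are from GENCODE vM1 (NCBIM37). The members and lists were chosen with earlier results of these data known. List medians cover members at 5 CPM or more in Exc_11. Values of some genes that enter these counts are not reported here.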

Additional observations from a re-analysis of the deposited data

Results flagged for a closer look

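The level of Rspo1 in Exc_11 stood apart in 1 cocaine library. It was 59.7 CPM in library 1, and the other cocaine libraries lay between 20.9 and 26.9 CPM. With 11 Exc_11 cells in library 1, 1 UMI is 8.53 CPM there, so that its level rests on few UMIs. The level in library 1 was the only such value among 36 groups of libraries looked at, and chance gives about 1 in 20 such groups.

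The age changes below differed between Exc_11 and the other excitatory neurons by the test of the difference itself. On the log2 scale the change in Exc_11 was lower by -5.20 for Cartpt, by -3.79 for Marcksl1 and by -2.88 for Thsd7a. It was higher by 0.68 for Nap1l5 and by 0.93 for Tmsb10. Each of these calls was lost without at least 1 library. Against Exc_10 alone, Cartpt was the only one of these genes called.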

How the results depend on the processing

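The age difference in the share of Exc_11 was -0.904 percentage points of all retained cells (exact permutation p = 0.0238) and -1.85 against all 12 P60 libraries (exact permutation p = 0.0286), and -2.16 to -1.52 without single libraries. It passed the threshold without saline library 2 (exact permutation p = 0.0179) or saline library 7 (exact permutation p = 0.0357). The cocaine difference in the share was 0.137 percentage points of all retained cells and -0.754 to 0.277 without single libraries, with positive values of 0.277, 0.0696, 0.0543 and 0.0298 without saline library 2, cocaine library 6, cocaine library 10 and saline library 7. The ribosomal difference was 0.121 against Exc_10 alone. The age calls numbered 111 to 256 without single libraries and 1 with the library score as covariate, and those that differed from the other neurons 5 to 12 without single libraries, 11 with size factors and 3 against Exc_10. Over all time points cocaine calls numbered 2 to 47 without single libraries, 0 in DESeq2 and 1 with the score. At maintenance DESeq2 called 1. At 15 days calls numbered 5 to 153 without single libraries, 11 in DESeq2 and 0 with the score. Against Exc_10 alone 1 gene was called in the cocaine comparison with other neurons. With the score as covariate the 15-day changes of Gm1673 (-0.19), Creg1 (-0.17) and Trappc9 (0.41) turned in sign, and Ppap2a was at 0.087 when its cocaine change was set against the other neurons at 15 days alone. The cause was not tested. Of the remaining values of named genes, 695 kept their direction and side of the threshold and 266 kept their direction only. Of 30 levels of leading genes, 11 moved by more than the spread between libraries, all 11 in the P21 libraries alone. Age calls with other cell minimums, filters and libraries numbered 130 to 253. The covariate for the library score was chosen after the data were seen. That score was higher in all P21 than in all saline libraries, and at 15 days higher in both cocaine than in both saline libraries. In P21 library 1, the smallest in the fits with 103244 UMIs of the genes used, 1 UMI is 9.69 CPM, so that lower levels were not resolved there. Libraries of different groups could not be paired with each other because the labels give the groups no shared replicate numbers.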

Other observations

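Cholesterol synthesis genes were low in Exc_11 as a group, with 0 of 13 genes at 5 CPM or more above the mean of the other clusters and a median log2 ratio of -0.34, against 4163 of 9403 genes and -0.04 over all genes. Respiratory chain genes were above that mean in 7 of 36 (median -0.09), beside the lower share of mitochondrial transcripts. Ndufs4 of complex I, at 446 CPM, was nevertheless highest in Exc_11 of all 26 clusters, and Ndufa2 of the same complex, at 551 CPM against 654 CPM, was lowest. Of the axon growth genes, Gap43, a protein of growth cones, was at 520 CPM against 1190 CPM and ranked 25, and the beta tubulin gene Tubb2b was at 2.8 CPM against 30.7 CPM and ranked 26. These are levels that the clustering used, and no test was made.

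Of 14 immediate early genes, 9 were above the mean of the other clusters at P60 (median log2 ratio 0.16), with Fos at 144 CPM (rank 3), Arc at 58.8 CPM (rank 2) and Npas4 at 60 CPM (rank 5), while Bdnf was at 121 CPM against 153 CPM. Among neuropeptide and receptor genes 6 of 7 were above that mean, led by Adcyap1, the peptide PACAP, with 62.2 CPM against 30.8 CPM. Npy was at 8.4 CPM against 48.2 CPM, Sstr2 at 1.3 CPM against 24.5 CPM and Pdyn at 0.

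At 48 h of withdrawal the lowest p-values belonged to Rbm39 (0.77), Mkln1 (1.18) and Gpatch8 (1.12) on the higher side and BC003331 (-2.07), Tm2d2 (-0.80) and Zfand6 (-0.98) on the lower, with edgeR adjusted p-values of 0.472 to 0.643, and thus none passed the test.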
